A study of Mus musculus with 23 samples.

Results

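The IgA axis was followed through 9 genes of the 55416 gene rows in the count tables. They were chosen by name, as mouse symbols matched to the Ensembl identifiers of the tables, and all 9 were found. Igha and Ighm encode the constant parts of the IgA and IgM heavy chains. Jchain, Mzb1 and Tnfrsf17 are genes of antibody-secreting cells, Cd79a, Cd79b and Ms4a1 are genes of B cells, and Pigr encodes the epithelial receptor that carries IgA into the gut lumen. The mice were of the strain C57BL/6JRccHsd and labelled female, and RNA-seq was done on proximal small intestine scrapings, 1 library per mouse. GAL42 mice (n = 12) ate, for 3 weeks from day 21 of age, a diet with 16% of its energy from galactose and 16% from glucose. GLU42 mice (n = 11) ate a diet with 32% of its energy from glucose and no galactose over the same time, and every mouse was 42 days old at sampling. The mice had been spread over the diets by body weight, carried no transgene or mutant allele in the labels, and were sampled at this single age. The comparison asks whether mice given the diet with galactose and glucose from day 21 differed in these genes from mice given the glucose diet.

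In the small intestine most IgA is made by plasma cells of the lamina propria. Their precursors switch from IgM to IgA largely in lymphoid follicles such as Peyer's patches, and the plasma cells then home back to the gut wall. IgA leaves these cells as a dimer held together by the J chain. The polymeric immunoglobulin receptor on the basal side of the epithelial cell binds that dimer, moves it through the cell and releases it at the lumen as secretory IgA. B cells carry CD79A and CD79B as the signalling arms of their antigen receptor and MS4A1 (CD20) on their surface. Plasma cells lose much of this equipment as they mature and gain TNFRSF17 (BCMA), a receptor for survival signals. MZB1 is a chaperone of the endoplasmic reticulum that helps to assemble antibodies.

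RefSeq promoter sequence, of the build GRCm38.p6 and covering 250 bases before to 50 bases after the start site, was at hand for 4 of the 9 genes. The promoters of Pigr, Jchain and Cd79a are printed because they stand for the epithelial receptor, the plasma cell genes and the B cell genes, whose levels are set against each other in the results. Capitals mark a match to any of 6 motifs searched on both strands, written 5′ to 3′ on the strand of the gene.
Pigr, chr1:130826434-130826733, plus strand: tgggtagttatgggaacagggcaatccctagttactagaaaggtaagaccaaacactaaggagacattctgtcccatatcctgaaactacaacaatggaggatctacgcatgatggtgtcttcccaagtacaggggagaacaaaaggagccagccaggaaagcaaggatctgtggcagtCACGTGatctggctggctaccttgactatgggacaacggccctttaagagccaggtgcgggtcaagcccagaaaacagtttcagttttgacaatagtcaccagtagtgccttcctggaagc
Jchain, chr5:88527848-88528147, minus strand: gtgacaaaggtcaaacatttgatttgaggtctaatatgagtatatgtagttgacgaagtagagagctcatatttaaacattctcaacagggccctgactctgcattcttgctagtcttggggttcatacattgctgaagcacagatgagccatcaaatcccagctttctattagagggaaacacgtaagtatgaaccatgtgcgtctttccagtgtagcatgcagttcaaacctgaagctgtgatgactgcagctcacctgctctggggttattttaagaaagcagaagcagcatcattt
Cd79a, chr7:24897247-24897546, plus strand: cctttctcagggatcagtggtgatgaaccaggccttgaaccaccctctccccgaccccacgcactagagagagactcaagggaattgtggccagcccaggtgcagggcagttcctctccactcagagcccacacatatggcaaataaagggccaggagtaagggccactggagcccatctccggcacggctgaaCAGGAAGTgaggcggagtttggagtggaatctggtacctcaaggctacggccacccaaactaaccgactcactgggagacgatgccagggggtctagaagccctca
The motifs were an E-box (CACGTG), an interferon response element (GAAA, any 2 bases, GAAA), an ETS site (CAGGAAGT), an octamer (ATTTGCAT), an NF-kappa-B site (GGGA, any base, TTTCC) and an EBF1 site (TCCC, any 2 bases, GGGA). No match overlapped another. The Pigr promoter held an E-box that began 71 bases before the start site, a motif found in 7.15% of 32851 promoters of the same length. The Cd79a promoter held an ETS site from 56 bases before the start, a motif found in 3.33% of promoters. The promoter of Tnfrsf17 held the interferon response element on its other strand from 101 bases before the start, and 3.44% of promoters hold that motif. The shares for the other motifs were 1.74% for the octamer, 0.411% for the NF-kappa-B site and 0.904% for the EBF1 site. A match describes letters only and is not evidence that a factor binds there.

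Libraries held 15382583 to 17174721 counts in genes, which sets a small counting error for the abundant genes of the axis and a large error for the rare ones. The tissue label fitted the epithelial markers: 9 enterocyte genes summed to 68978 ± 6031 CPM (counts of a gene per 1000000 counts in genes of that library) in GAL42 mice and 66551 ± 5954 CPM in GLU42 mice (SD). The library labelled GAL42 replicate 12 went against its sex label, with 225 counts over 4 Y-linked genes, against at most 1 in any other library, and 4 counts of Xist, against 778 to 2351 in the others. It also had the highest Ighm, Cd79a, Cd79b and Ms4a1 of all 23 mice, so the main results on those genes are given with and without it. Across the genome edgeR's quasi-likelihood test called 0 of 13405 tested genes (0%) at a Benjamini-Hochberg adjusted p under 0.05, and the smallest adjusted p was 0.135.

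None of the genes of the axis passed that test between the diets. Of the 6 that passed the filter on low counts (Igha, Ighm, Jchain, Cd79a, Cd79b and Pigr), 0 were called by edgeR, against a background of 0%. At an unadjusted p under 0.05 there were 3 of the 6, Ighm, Cd79a and Cd79b, all higher in GAL42 mice, where 8.63% of all tested genes were higher and 5.72% lower at that limit. That count was 0 of the 6 with limma-voom, with limma-voom and sample quality weights, and with edgeR without GAL42 replicate 12, and 3 of the 6 with DESeq2. DESeq2 called 0.985% of all genes and none of the 4 members to which it gave an adjusted p. It gave none to Cd79a and Cd79b, nor to 6237 of the 13405 genes in all. At the adjusted threshold limma-voom called 0 of the 6 and 0% of all genes, and limma-voom with sample quality weights called 0 of the 6 and 1.25% of all genes. Without GAL42 replicate 7 edgeR called 0 of the 6 and 1.64% of all genes. Mzb1, Tnfrsf17 and Ms4a1 did not pass the filter, and their values below come from a fit to which the 3 were added.

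The order of abundance was read as CPM per kilobase of the longest GENCODE M21 transcript. It put Pigr, Igha and Jchain far above the B cell genes in both diets. At the bottom were Tnfrsf17, Mzb1 and the B cell gene Ms4a1. Pigr averaged 1020 ± 218 CPM per kilobase in GAL42 mice and 989.5 ± 131 in GLU42 mice, and Igha averaged 348 ± 183 in GAL42 mice and 317 ± 120 in GLU42 mice. Jchain averaged 41.0 ± 21.5 CPM per kilobase in GAL42 mice and 39.8 ± 13.3 in GLU42 mice, and Ighm 15.5 ± 13.4 in GAL42 mice and 8.26 ± 3.09 in GLU42 mice. Pigr was above Igha, and Igha above Jchain, in 23 of 23 mice, and Jchain was above Ighm in 22. Below them came Cd79a at 5.08 ± 5.002 CPM per kilobase in GAL42 mice and 2.19 ± 1.82 in GLU42 mice, and Cd79b at 2.52 ± 2.03 in GAL42 mice and 1.30 ± 0.720 in GLU42 mice. Ighm was above Cd79a in all 23 mice, and Cd79a above Cd79b in 19. The lowest levels were those of Ms4a1, Tnfrsf17 and Mzb1, each averaging under 1 CPM per kilobase in both diets. Ms4a1 averaged 0.760 in GAL42 mice and 0.266 in GLU42 mice, and Tnfrsf17 0.385 in GAL42 mice and 0.430 in GLU42 mice. Ms4a1 was above Tnfrsf17 in 9 of 23 mice, so the order of that pair did not hold between diets or from mouse to mouse.

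**Figure D1:**
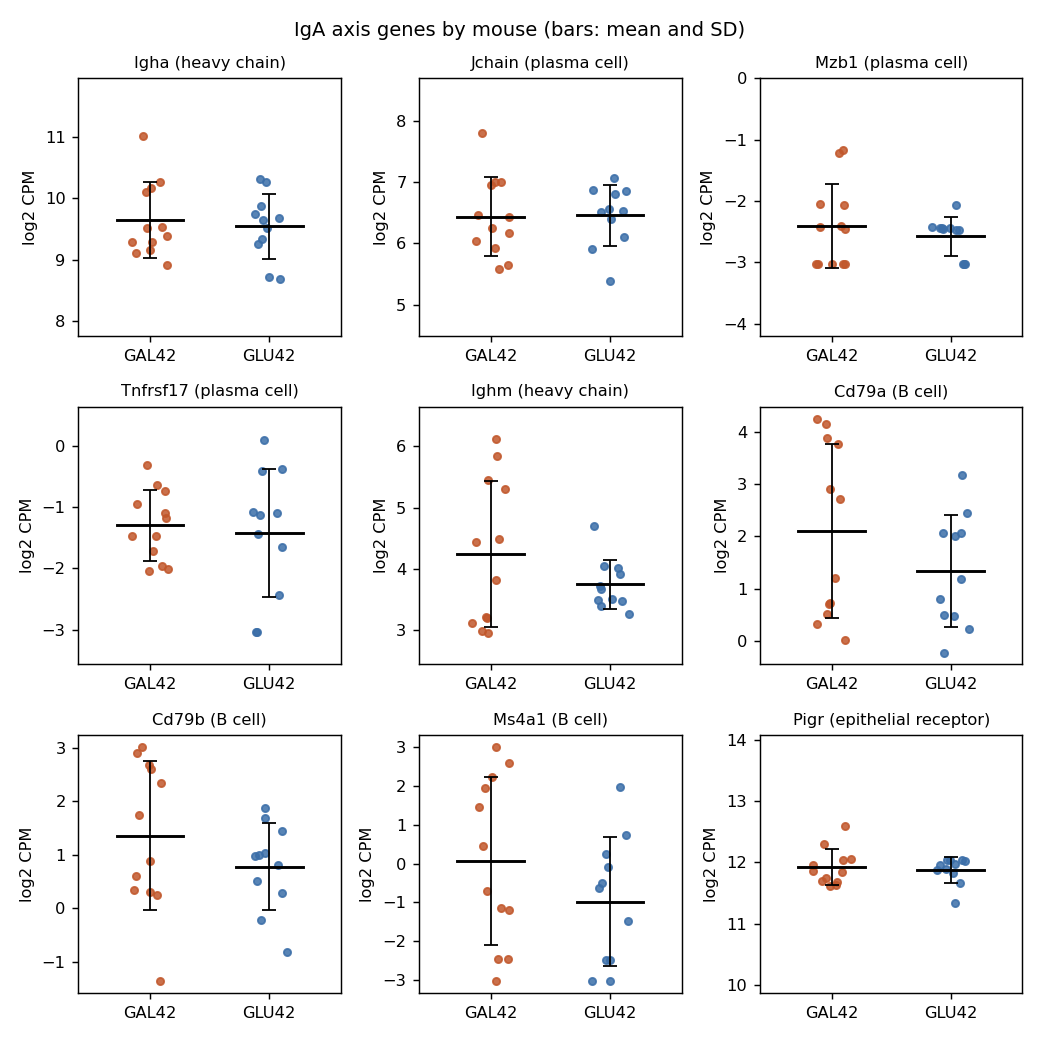
Level of each of the 9 genes in every mouse, as log2 CPM after TMM scaling with a prior count of 2, GAL42 on the left of each panel (n = 12) and GLU42 on the right (n = 11). Points are mice, the thick line is the mean and the bars are the SD; the diets overlap in all 9 panels, and Ighm and the B cell genes reach higher in GAL42 mice, with Ighm up to 74.8 CPM there and up to 28.3 CPM in GLU42 mice.

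For Igha, the heavy chain of IgA, no difference between the diets passed the test, and mice of the same diet differed far more than the diet means. It lay between 446.3 and 2072 CPM with a median of 714 in GAL42 mice, against 400.5 to 1383 CPM with a median of 821 in GLU42 mice. The ranges overlapped almost wholly: 4 of 12 GAL42 mice lay above the GLU42 median, and only GAL42 replicate 5 lay above every GLU42 mouse. The mean was 884.5 ± 464.5 CPM in GAL42 mice and 804.5 ± 305.6 CPM in GLU42 mice (SD, n = 12 and 11), and the log2 difference, GAL42 minus GLU42, was 0.15 ± 0.22 (SE, adjusted p = 0.796, edgeR). In a bulk scraping such a level cannot tell fewer or more cells of a type from less or more RNA per cell. Without GAL42 replicate 12 the difference was 0.10.

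Jchain, whose product joins IgA monomers, also showed no difference that passed the test. It ranged from 45.8 to 221 CPM with a median of 82.1 in GAL42 mice, against 42.0 to 146.8 CPM with a median of 91.9 in GLU42 mice. The mouse at the top was again GAL42 replicate 5, and 4 of 12 GAL42 mice lay above the GLU42 median. The log2 difference was 0.05 ± 0.22 (adjusted p = 0.935, edgeR), and 0.0069 without GAL42 replicate 12. The log2 ratio of Igha to Jchain was the steadiest ratio in the axis, at 3.21 ± 0.146 in GAL42 mice and 3.10 ± 0.235 in GLU42 mice (difference 0.12, permutation p = 0.159, adjusted p = 0.505 over 16 such values).

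Tnfrsf17, the survival receptor BCMA, was close to the detection limit of these libraries. It had 0 to 16 counts per library, with 0.120 to 0.681 CPM and a median of 0.283 in GAL42 mice, against 0 to 1.03 CPM and a median of 0.350 in GLU42 mice. The diets overlapped fully, and the GLU42 mice held both the highest mouse and the 2 at 0. A count of 0 here allows up to 3 counts, for counting error only. The log2 difference was -0.13 ± 0.43 (adjusted p = 0.919, edgeR).

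Mzb1, the antibody chaperone, was lower still, with 0 to 5 counts per library and 8 libraries at 0. It lay between 0 and 0.320 CPM in GAL42 mice and between 0 and 0.121 CPM in GLU42 mice, with a log2 difference of 0.74 ± 0.64 (adjusted p = 0.622, edgeR). These values are uncertain as a measure of the gene. In GENCODE M21, 695 of its 1215 exon bases, or 57.2%, are shared with SPATA24 on the same strand, and the other 8 genes of the axis share none with another gene. SPATA24 itself had 0 counts in every library. How the authors' counting treated reads in the bases that Mzb1 shares is not given in the sources used here, and its part in the low counts was not tested.

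Cd79a and Cd79b, the paired signalling chains of the B cell receptor, were higher on average in GAL42 mice, but the difference did not pass the test. Cd79a ran from 0.878 to 20.3 CPM with a median of 4.31 in GAL42 mice, against 0.712 to 9.70 CPM with a median of 2.06 in GLU42 mice. GAL42 mice lay on both sides of the GLU42 median, 7 above and 5 below, and 4 of them (replicates 4, 9, 11 and 12) lay above every GLU42 mouse. The log2 difference of Cd79a was 1.22 ± 0.51 (unadjusted p = 0.0254, adjusted p = 0.280, edgeR), and without GAL42 replicate 12 it was 0.98 ± 0.51 (unadjusted p = 0.0654, adjusted p = 0.368).

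Cd79b ran from 0.260 to 7.88 CPM with a median of 2.46 in GAL42 mice, against 0.470 to 3.88 CPM with a median of 1.86 in GLU42 mice. GAL42 mice held both ends of its range, with 5 mice above every GLU42 mouse and 1 below. Its log2 difference was 0.95 ± 0.41 (unadjusted p = 0.0282, adjusted p = 0.291, edgeR), and 0.80 ± 0.41 without GAL42 replicate 12 (adjusted p = 0.366).

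Ms4a1, which encodes the B cell surface protein CD20, had 0 to 133 counts per library and reached 10 counts in 10 of them. It ran from 0 to 8.45 CPM with a median of 0.866 in GAL42 mice, against 0 to 4.14 CPM with a median of 0.525 in GLU42 mice. Of the GAL42 mice, 3 lay above every GLU42 mouse and 6 lay above the GLU42 median. The log2 difference was 1.53 ± 0.73 (unadjusted p = 0.0456, adjusted p = 0.339, edgeR), and 1.16 ± 0.73 without GAL42 replicate 12 (adjusted p = 0.458).

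Ighm, the heavy chain of IgM that naive B cells carry, was higher on average in GAL42 mice, again without passing the test. It ran from 7.48 to 74.8 CPM with a median of 17.8 in GAL42 mice, against 9.95 to 28.3 CPM with a median of 12.7 in GLU42 mice. GAL42 mice spread past the GLU42 mice at both ends: 4 lay above all of them and 5 lay below all of them. The log2 difference was 0.90 ± 0.34 (unadjusted p = 0.0144, adjusted p = 0.236, edgeR), and 0.66 ± 0.32 without GAL42 replicate 12 (unadjusted p = 0.0504, adjusted p = 0.339).

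Pigr, the receptor that moves IgA across the epithelium, had the highest level of the 9 genes and the smallest spread between mice. It ran from 3214 to 6168 CPM with a median of 3581 in GAL42 mice, against 2610 to 4425 CPM with a median of 4003 in GLU42 mice. The diets overlapped, with 5 of 12 GAL42 mice above the GLU42 median, and the top mouse was GAL42 replicate 5, also the top mouse for Igha and Jchain. The log2 difference was 0.06 ± 0.10 (adjusted p = 0.836, edgeR), and 0.08 without GAL42 replicate 12.

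**Figure D2:**
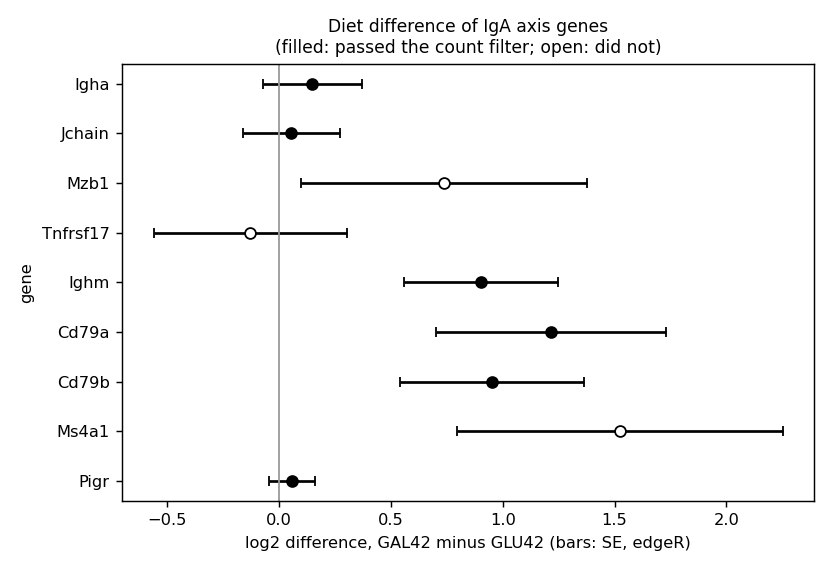
Log2 difference, GAL42 minus GLU42, of each gene on the horizontal axis, with bars for the SE from edgeR; filled points passed the filter on low counts and open points did not. Igha, Jchain and Pigr lie within 0.15 of 0, and Ighm, Cd79a, Cd79b and Ms4a1 lie between 0.90 and 1.53 with SEs from 0.34 to 0.73.

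Cd79a, Cd79b and Ms4a1 had a wider spread between mice than Igha, Jchain and Pigr in each diet, a description that was not tested. In GAL42 mice the SD of log2 CPM was 1.66 for Cd79a, 1.39 for Cd79b, 2.16 for Ms4a1 and 1.19 for Ighm, beside 0.61 for Igha, 0.65 for Jchain and 0.30 for Pigr. In GLU42 mice it was 1.07 for Cd79a, 0.81 for Cd79b, 1.66 for Ms4a1 and 0.41 for Ighm, beside 0.53 for Igha, 0.49 for Jchain and 0.21 for Pigr. Ighm was thus wider than Igha in GAL42 mice and narrower in GLU42 mice. The rare plasma cell genes did not share 1 pattern. Tnfrsf17 had an SD of 0.57 in GAL42 mice and 1.05 in GLU42 mice, the latter wider than Cd79b. Mzb1 had 0.69 in GAL42 mice and 0.32 in GLU42 mice. At their mean counts, counting error alone corresponds to a coefficient of variation of 43.1% for Tnfrsf17 and 94.0% for Mzb1. Between the highest and the lowest of the 23 mice the fold was 28.5 for Cd79a, 30.3 for Cd79b and 10.01 for Ighm, against 5.17 for Igha, 5.26 for Jchain and 2.36 for Pigr. Without GAL42 replicate 12 the SD in GAL42 mice was 1.59 for Cd79a, 1.36 for Cd79b, 2.05 for Ms4a1 and 1.08 for Ighm, and the folds were 24.2 for Cd79a, 30.03 for Cd79b and 7.53 for Ighm. For the genes other than Tnfrsf17 and Mzb1, counting error at the mean count was a small part of the spread. It corresponds to a coefficient of variation of 10.7% for Cd79a, 14.9% for Cd79b, 19.7% for Ms4a1 and 5.49% for Ighm. For Igha it was 0.852% and for Pigr 0.398%. The observed coefficient of variation of Cd79a was 98.5% in GAL42 mice and 83.3% in GLU42 mice. In the lowest mice counting error is larger: Cd79b had 4 counts in GAL42 replicate 10, and Ms4a1 had 0 in 3 libraries, where the prior count sets its log2 CPM.

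These spreads were also wide beside other genes of like abundance. The biological coefficient of variation that edgeR fitted was 0.812 for Cd79a, where the median of 1478 genes of near expression was 0.195. Cd79b had 0.661 against a median of 0.241, and Ighm 0.550 against 0.128. Without GAL42 replicate 12 it was 0.798 for Cd79a, 0.655 for Cd79b and 0.507 for Ighm. Igha had 0.365 against 0.128 and Jchain 0.360 against 0.114. These 5 lay between the 98.0th and the 99.7th percentile of their neighbours, whereas Pigr, at 0.176 against 0.162, lay at the 56.0th percentile of the 25 genes near it.

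Across mice the genes formed 2 groups by correlation, and none of Pigr's correlations with either group passed the adjustment. Correlations were taken over 23 mice on deviations from the diet means of log2 CPM, for 36 pairs, with permutation p-values adjusted over those pairs. Igha and Jchain had a Pearson r of 0.944 and a Spearman rho of 0.957 (adjusted p = 5.14e-05 for each), and r was 0.915 without the 2 mice farthest from the median of Igha. The pair held within each diet, with r of 0.975 in GAL42 mice and 0.897 in GLU42 mice. Igha and Tnfrsf17 had r of 0.746 and rho of 0.754 (adjusted p = 0.000225 and 0.00027), and Jchain and Tnfrsf17 had r of 0.705 and rho of 0.692 (adjusted p = 0.00064 and 0.00156). Igha and Mzb1 had r of 0.497 (adjusted p = 0.0482) and rho of 0.366 (adjusted p = 0.223), and r was 0.310 without the 2 farthest mice, so that relation rested on them. The smallest unadjusted p that these permutations can give is 1e-05.

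The B cell genes made up the other group. Cd79a and Ms4a1 had r of 0.948 and rho of 0.909, Ighm and Cd79a r of 0.920 and rho of 0.893, and Ighm and Ms4a1 r of 0.885 and rho of 0.867 (adjusted p = 5.14e-05 for each). Cd79b joined them, with r of 0.852 to Cd79a, 0.868 to Ighm and 0.821 to Ms4a1, each at the same adjusted p. In GAL42 mice alone r was 0.959 for Cd79a and Ms4a1, 0.973 for Ighm and Cd79a and 0.921 for Ighm and Cd79b. In GLU42 mice alone the same pairs had r of 0.933, 0.814 and 0.684. Leaving out GAL42 replicate 12 left r at 0.941 for Cd79a and Ms4a1 and 0.915 for Ighm and Cd79a. The 5 mice highest in Cd79a, which were GAL42 replicates 12, 9, 11 and 4 and GLU42 replicate 8, were also the 5 highest in Ighm and in Ms4a1, and 4 of them were among the 5 highest in Cd79b.

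Between the groups the relations were weak and did not pass the adjustment. Igha and Cd79a had r of 0.325 and rho of 0.332 (adjusted p = 0.246 and 0.232), with r of 0.535 in GAL42 mice and -0.08 in GLU42 mice. Igha and Ighm had r of 0.368 and rho of 0.343 (adjusted p = 0.211 and 0.226). Of the 5 mice highest in Cd79a, 3 were among the 5 highest in Igha, while GAL42 replicate 9, second in Cd79a with 17.2 CPM, had an Igha level of 609.6 CPM, below both medians. GAL42 replicate 5, with the highest Igha at 2072 CPM, had 7.30 CPM of Cd79a.

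No correlation of Pigr with another member passed the adjustment. Igha and Pigr had r of 0.294 but rho of 0.0336 (adjusted p = 0.2497 and 0.908), and r was -0.09 without the 2 mice farthest from the median of Igha, so the positive value rested on them. Jchain and Pigr had r of 0.287 and rho of -0.0089 (adjusted p = 0.2497 and 0.969), and r of -0.36 without the 2 farthest. With the B cell genes r was -0.27 for Cd79a, -0.26 for Cd79b, -0.31 for Ighm and -0.35 for Ms4a1 (adjusted p from 0.213 to 0.268). The log2 ratio of Igha to Pigr, a measure of IgA message per receptor message, was -2.27 ± 0.607 in GAL42 mice and -2.33 ± 0.498 in GLU42 mice (difference 0.06, permutation p = 0.810, adjusted p = 0.931).

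**Figure D3:**
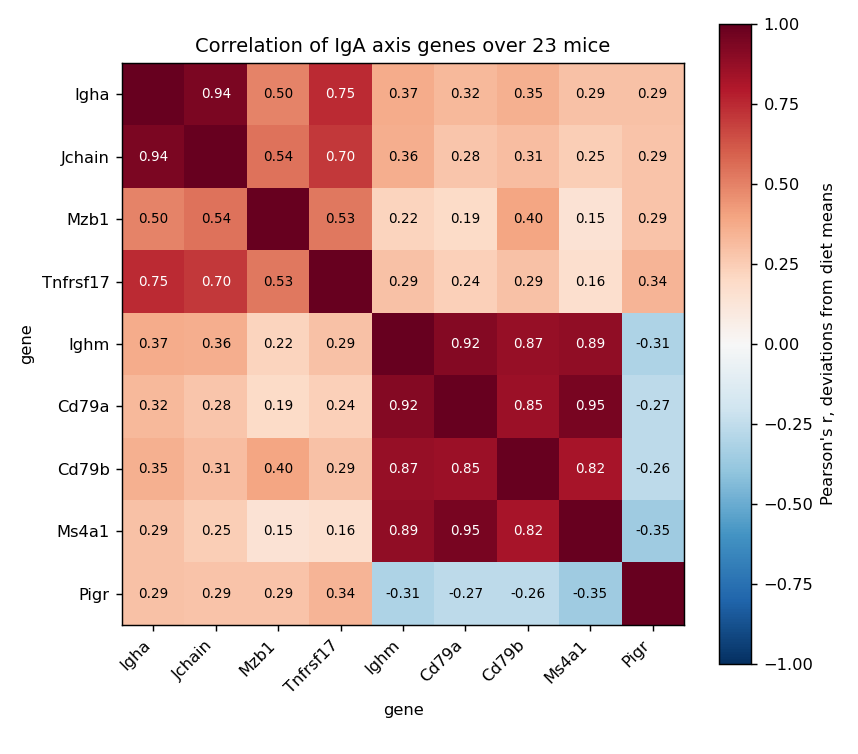
Pearson correlation of each pair of the 9 genes over 23 mice, taken on deviations from the diet means of log2 CPM; red is positive and blue negative. Igha and Jchain (0.94) form a corner with Tnfrsf17, and Ighm, Cd79a, Cd79b and Ms4a1 form a block between 0.82 and 0.95, with Pigr between -0.35 and 0.34 to every other gene.

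**Figure D4:**
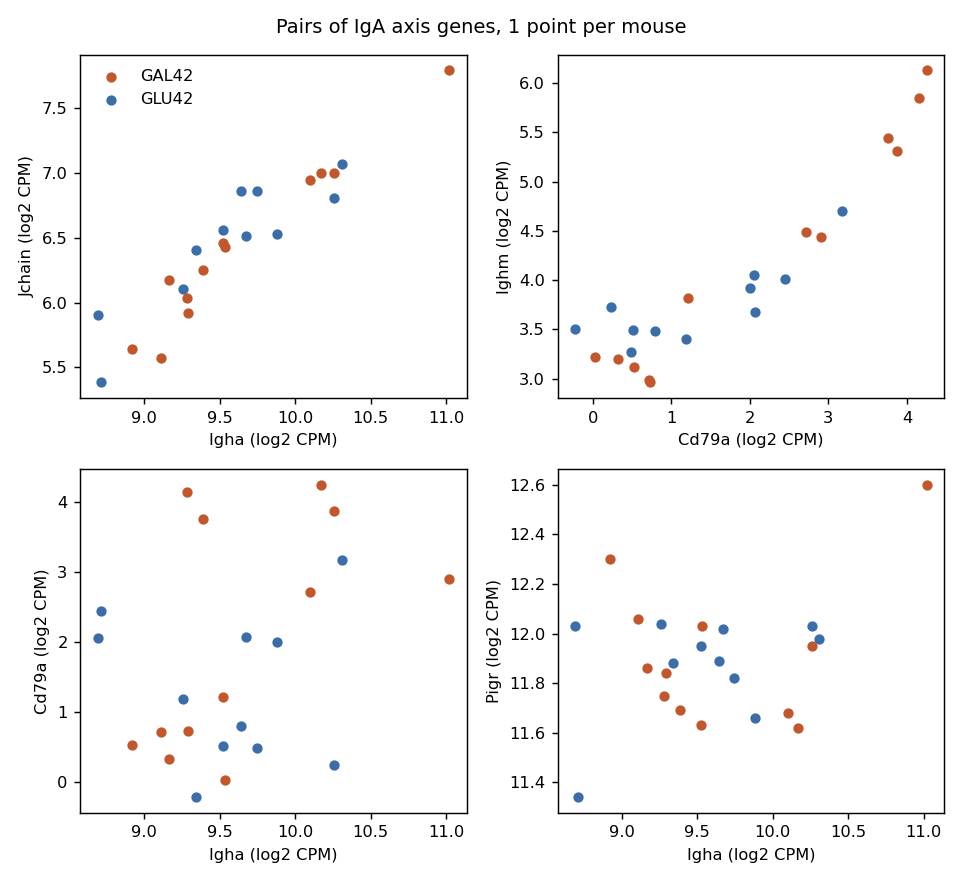
Pairs of genes with each point a mouse, as log2 CPM, GAL42 in orange and GLU42 in blue. Jchain rises with Igha and Ighm rises with Cd79a in both diets, while Cd79a against Igha and Pigr against Igha scatter, with GAL42 replicate 5 alone at the upper right of the Pigr panel.

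The contrast of plasma cell with B cell genes was put as ratios within each mouse, which do not depend on library scaling apart from the 0.5 added to each count. The log2 ratio of Igha to Cd79a averaged 7.60 ± 1.47 in GAL42 mice and 8.28 ± 1.28 in GLU42 mice, a difference of -0.68 (permutation p = 0.251, adjusted p = 0.505). The ranges were 5.14 to 9.65 in GAL42 mice and 6.29 to 10.1 in GLU42 mice, and the medians lay in the other order, at 8.26 in GAL42 mice and 8.13 in GLU42 mice, with 7 of 12 GAL42 mice above the GLU42 median. Jchain to Cd79a differed by -0.79, Igha to Ms4a1 by -1.18 and Igha to Ighm by -0.40 (adjusted p = 0.505 for each). Differences between group medians were much smaller, at -0.049, -0.17 and -0.21 for the same ratios. With 5 added to each count in place of 0.5 they were -0.76, -0.79 and -0.40 between group means. Ms4a1 had 0 counts in 3 libraries, where its ratio rests on the added count. Igha to Ighm differed by -0.22 without GAL42 replicate 9. Without GAL42 replicate 12 the difference was -0.52 for Igha to Cd79a, -0.65 for Jchain to Cd79a, -0.93 for Igha to Ms4a1 and -0.28 for Igha to Ighm. Cd79a to Pigr averaged -9.87 ± 1.81 in GAL42 mice and -10.6 ± 1.18 in GLU42 mice, a difference of 0.73 (permutation p = 0.263, adjusted p = 0.505), and 0.51 without GAL42 replicate 12. None of the 16 ratios and shares passed the adjustment.

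Igha and Ighm were also read as shares of all counts in the 8 heavy chain constant genes, which numbered 7110 to 34271 per library. These shares are not corrected for transcript length and are compared between mice only. Igha held 94.4 ± 5.06% of them in GAL42 mice and 97.0 ± 1.63% in GLU42 mice (permutation p = 0.131, adjusted p = 0.505). In GAL42 mice the share ran from 84.1 to 98.3% and in GLU42 mice from 93.7 to 98.5%, and 8 of 12 GAL42 mice lay below the GLU42 median. Ighm held 2.81 ± 2.21% in GAL42 mice and 1.88 ± 0.924% in GLU42 mice (permutation p = 0.221, adjusted p = 0.505). The difference of the Igha share, -2.63 percentage points, was -0.72 between group medians, -1.70 without GAL42 replicate 9 and -2.05 without GAL42 replicate 12. That of the Ighm share, 0.92 points, was 0.23, 0.47 and 0.69 in the same settings.

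The IgG genes together, counterparts of Igha that systemic responses use most, held 2.12 ± 2.02% in GAL42 mice and 0.754 ± 0.532% in GLU42 mice (permutation p = 0.0397, adjusted p = 0.505). Their share ran from 0.395 to 5.53% in GAL42 mice, against 0.379 to 1.89% in GLU42 mice, with 10 of 12 GAL42 mice above the GLU42 median. Without GAL42 replicate 12 the GAL42 mean was 1.86%. The difference did not pass the adjustment, and the ranges overlapped at their lower ends.

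**Figure D5:**
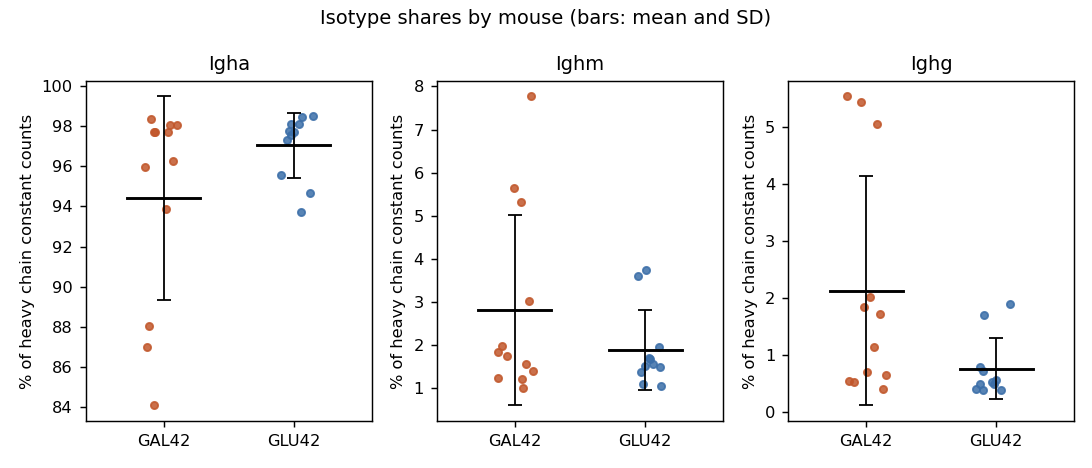
Share of the counts in 8 heavy chain constant genes that fell in Igha, in Ighm and in the IgG genes, in percent, per mouse, GAL42 left and GLU42 right, with the mean and SD; the vertical axes do not start at 0 for Igha. Igha lies below 90% in 3 GAL42 mice and in no GLU42 mouse, and IgG lies above 5% in the same number of GAL42 mice and in no GLU42 mouse.

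Light chain and variable segment use, which the counts give over all isotypes and not for IgA alone, showed no difference past the test. The kappa share of light chain constant counts averaged 95.2 ± 2.53% in GAL42 mice and 95.2 ± 3.41% in GLU42 mice (adjusted p = 0.983). Of 185 heavy chain variable genes in the tables, 105 had any count, with 778 to 3616 counts per library. The most used segment held 14.96 ± 6.47% of them in GAL42 mice and 15.5 ± 8.42% in GLU42 mice (adjusted p = 0.931). Ighv1-26 was the most used in 10 mice (6 GAL42 and 4 GLU42) and Ighv3-6 in 7 (3 GAL42 and 4 GLU42), and across mice the share of Ighv1-26 ran from 1.80 to 31.9%. Variable genes resemble each other closely, and how reads that match several of them were treated is not given in the sources used here, so these shares are uncertain.

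Wider lists of related genes were read beside the members, by counts alone. Of 18 tested plasma cell genes besides the members, 13 had a positive difference and 5 a negative one, 0 were called, and 3 were higher and 1 lower at an unadjusted p under 0.05. Over all tested genes 49.5% had a positive difference, and 8.63% were higher and 5.72% lower at that limit. The median log2 difference of the list was 0.20, and that of all tested genes was -0.0017. The 1 lower gene was Prdm1, with a mean of 8.79 CPM in GAL42 mice and 10.9 CPM in GLU42 mice (-0.31 ± 0.14, unadjusted p = 0.0359, adjusted p = 0.318, edgeR). Xbp1, the transcription factor that prepares a cell for secretion but is also used by other secretory cells, had 209 ± 12.03 CPM in GAL42 mice and 210 ± 15.3 CPM in GLU42 mice. Igkc, the kappa constant chain, had 605 ± 357 CPM in GAL42 mice and 562 ± 227 CPM in GLU42 mice, a difference of 0.12 ± 0.24 (adjusted p = 0.851, edgeR).

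The members of that list with the smallest p were Ighg2c, Ighg2b and Creld2. Ighg2b had 1.38 to 41.6 CPM with a median of 12.8 in GAL42 mice, against 1.38 to 17.7 CPM with a median of 3.15 in GLU42 mice (log2 difference 1.71 ± 0.53, unadjusted p = 0.00343, adjusted p = 0.167, edgeR). Ighg2c had 0.361 to 25.2 CPM with a median of 3.29 in GAL42 mice, against 0.0626 to 6.47 CPM with a median of 1.07 in GLU42 mice (1.90 ± 0.59, unadjusted p = 0.00326, adjusted p = 0.165). GAL42 replicate 12 was the highest mouse for both Ighg2b and Ighg2c, and their differences without it are not given. Both are heavy chains of IgG and close copies of each other, so reads may be split between them. Although on the plasma cell list, they were high in the mice high in B cell genes. Of the 5 mice highest in Cd79a, 5 were among the 5 highest in Ighg2b and 4 among those in Ighg2c, against 3 for Igha and 3 for Jchain. Creld2, a protein of the endoplasmic reticulum, had 35.8 ± 7.06 CPM in GAL42 mice and 28.7 ± 6.17 CPM in GLU42 mice (0.33 ± 0.12, adjusted p = 0.234).

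Of 15 tested B cell genes besides the members, 14 had a positive difference and 1 a negative one, with a median of 0.28, 0 called and 3 higher at an unadjusted p under 0.05. Of all tested genes 49.5% had a positive difference and 8.63% were higher at that limit. The 3 were Cd37, Fcrla and Blnk, of which Blnk is the adaptor that links the receptor's CD79 chains to signalling in the cell. Blnk ran from 28.7 to 44.7 CPM in GAL42 mice and 22.4 to 43.2 CPM in GLU42 mice. Cd79a ran from 0.878 to 20.3 and 0.712 to 9.70 CPM. How much of Blnk or Cd37 came from B cells was not tested. The negative gene was Cd24a, the most abundant of the list, with means of 86.9 CPM in GAL42 mice and 94.9 CPM in GLU42 mice. Cd37, a surface tetraspanin, had 6.75 ± 3.49 CPM in GAL42 mice and 3.85 ± 1.61 CPM in GLU42 mice (0.81 ± 0.25, unadjusted p = 0.00338, adjusted p = 0.166, edgeR). Ighd, the heavy chain of IgD that marks naive B cells, ran from 0.120 to 22.3 CPM in GAL42 mice, against 0.0587 to 8.86 CPM in GLU42 mice (1.51 ± 0.75, adjusted p = 0.359).

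The summed level of follicle and germinal centre genes correlated with Cd79a from mouse to mouse. Of 15 such genes, 6 were tested, 3 with a positive and 3 with a negative difference, 0 called and 2 higher at an unadjusted p under 0.05 (median 0.26). Over all tested genes 49.5% had a positive difference and 8.63% were higher at that limit. Summed over the 15, the follicle and germinal centre genes came to 24.0 to 108 CPM in GAL42 mice, with a mean of 54.2 ± 26.3, against 29.2 to 57.5 CPM and 43.01 ± 9.74 in GLU42 mice. Much of the sum came from Bcl6, with 19.3 CPM on average in GAL42 mice and 20.02 CPM in GLU42 mice, and Clu, with 16.5 CPM in GAL42 mice and 11.1 CPM in GLU42 mice. Over the 23 mice that sum and Cd79a had r of 0.681 and rho of 0.659 (permutation, adjusted p = 0.00305 and 0.00627 over 33 list and gene pairs). Within the diets r was 0.727 in GAL42 mice and 0.542 in GLU42 mice, and over both it was 0.558 without the 2 mice farthest from the median. GAL42 replicate 12 was the highest mouse both in that sum and in Cd79a, and r without that mouse alone is not given. The 5 mice highest in Cd79a were also the 5 highest in Cr2 and Fcer2a, receptors of follicular B cells, and in Cxcl13, the chemokine that draws B cells into follicles. Ltb, the lymphotoxin chain that follicles need to form, had 2.72 ± 1.47 CPM in GAL42 mice and 1.71 ± 0.558 CPM in GLU42 mice (0.67 ± 0.24, adjusted p = 0.217, edgeR). Cxcl13 ran from 0 to 9.72 CPM in GAL42 mice, against 0.0587 to 2.46 CPM in GLU42 mice. Whether the amount of follicle tissue in a scraping set the level of the B cell genes was not tested.

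The follicle-associated epithelium and M cell list had 3 positive and 4 negative differences among 7 tested genes. Its sum was 70.0 to 106 CPM in GAL42 mice, against 82.2 to 107 CPM in GLU42 mice. Its r with Cd79a was 0.617 and rho 0.552 (permutation, adjusted p = 0.0126 and 0.0383), with r of 0.807 in GAL42 mice and 0.168 in GLU42 mice. Without the 2 mice farthest from the median r was 0.551. The gene of this list with the smallest unadjusted p, Tnfrsf11a, had a negative difference (-0.15 ± 0.08, adjusted p = 0.425, edgeR). Marcksl1 also had a negative difference (-0.14 ± 0.15, adjusted p = 0.715, edgeR). The largest positive difference of the list was that of Gp2. Gp2, which M cells use to take up bacteria, had 0.370 to 6.82 CPM with a median of 0.589 and a mean of 1.32 in GAL42 mice, against 0.314 to 1.80 CPM with a median of 0.876 and a mean of 0.886 in GLU42 mice (0.61 ± 0.43, adjusted p = 0.530, edgeR).

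Among other leukocytes, T cell genes had 12 positive and 1 negative difference among 13 tested, 7 of them higher at an unadjusted p under 0.05, 0 called and a median of 0.56, beside 49.5% positive and 8.63% higher over all tested genes. They summed to 146.0 to 364.9 CPM in GAL42 mice, against 57.8 to 273 CPM in GLU42 mice. Lck, the kinase behind the T cell receptor, had 10.2 ± 2.11 CPM in GAL42 mice and 6.96 ± 2.67 CPM in GLU42 mice (0.56 ± 0.17, adjusted p = 0.162, edgeR). The T cell sum had r of -0.10 with Cd79a and -0.03 with Igha (adjusted p = 0.796 and 0.892, permutation; rho -0.10 and -0.16). With Pigr it had r of 0.426 and rho of 0.422 (adjusted p = 0.133 and 0.127, permutation), with r of 0.045 in GAL42 mice and 0.868 in GLU42 mice. Macrophage and dendritic cell genes had 5 positive and 6 negative differences among 11 tested, and their sum went with Igha: r was 0.803 and rho 0.856 (adjusted p = 0.00011 for each, permutation), with 0.808 in GAL42 mice and 0.799 in GLU42 mice, and r was 0.752 without the 2 mice farthest from the median. The same sum had r of 0.522 and rho of 0.449 with Cd79a (adjusted p = 0.0539 and 0.110, permutation), with r of 0.762 in GAL42 mice and -0.01 in GLU42 mice. The list of other secretory and mural genes, 2 positive and 8 negative among 10 tested, also went with Igha, with r of 0.607 and rho of 0.602 (adjusted p = 0.0126 and 0.0190, permutation), and it summed to 1756 to 3271 CPM in GAL42 mice, against 2139 to 3840 CPM in GLU42 mice. The part of the depth or composition of a scraping in these relations was not tested.

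No signal that induces IgA or keeps plasma cells alive differed past the test. Of 13 such genes 5 were tested, 2 with a positive and 3 with a negative difference, none at an unadjusted p under 0.05, and their median was -0.0011. Tnfsf13, which encodes APRIL, a ligand of the Tnfrsf17 receptor, had 3.37 ± 1.13 CPM in GAL42 mice and 3.91 ± 0.845 CPM in GLU42 mice (-0.19 ± 0.17, adjusted p = 0.630, edgeR). Tnfrsf13b, which encodes TACI, another receptor for APRIL, had 2.38 ± 1.20 CPM in GAL42 mice and 1.92 ± 0.810 CPM in GLU42 mice (0.31 ± 0.24, adjusted p = 0.578). Aldh1a2, which makes the retinoic acid that imprints gut homing, had 2.26 ± 0.811 CPM in GAL42 mice and 2.75 ± 0.773 CPM in GLU42 mice (-0.26 ± 0.19, adjusted p = 0.537).

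All 7 tested genes of homing to the gut had a positive difference, where 49.5% of all tested genes had one, and 0 were called. At an unadjusted p under 0.05, 2 of the 7 were higher, where 8.63% of all tested genes were. Itgb7, a chain of the integrin by which lymphocytes enter the gut wall, had 5.25 to 13.9 CPM with a median of 9.001 in GAL42 mice, against 2.75 to 8.47 CPM with a median of 4.95 in GLU42 mice (0.70 ± 0.18, unadjusted p = 0.000718, adjusted p = 0.138, edgeR). T cells carry it too. Ccl25, the chemokine of the small intestinal epithelium, had 640.2 ± 75.9 CPM in GAL42 mice and 576 ± 33.6 CPM in GLU42 mice (0.16 ± 0.06, adjusted p = 0.226), and its receptor Ccr9 had 4.24 ± 1.31 CPM in GAL42 mice and 3.53 ± 0.804 CPM in GLU42 mice (0.27 ± 0.17, adjusted p = 0.456).

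Around Pigr, 18 genes of receptor regulation and transport were tested, 8 with a positive and 10 with a negative difference, and their median was -0.0092. Over all tested genes 49.5% had a positive difference and 8.63% were higher at an unadjusted p under 0.05. Of the 18, 1 was higher at that limit. That gene was Usf1, a factor that binds E-boxes, with 31.0 ± 3.68 CPM in GAL42 mice and 27.9 ± 1.63 CPM in GLU42 mice (0.16 ± 0.06, adjusted p = 0.210, edgeR). Fcgrt, the receptor that carries IgG across epithelium, had 160 ± 20.1 CPM in GAL42 mice and 149 ± 18.9 CPM in GLU42 mice (0.12 ± 0.08, adjusted p = 0.487), and Rab3d, a GTPase of transport vesicles, had 17.6 ± 2.67 CPM in GAL42 mice and 19.5 ± 3.11 CPM in GLU42 mice (-0.13 ± 0.08, adjusted p = 0.456).

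The genes whose pattern over mice was most like that of 1 member of each group were taken from 11657 candidates averaging at least 1 CPM, by Pearson r over 23 mice on the same deviations, without members, immunoglobulin segments and predicted genes. These r are a description. Nearest to Igha were Tmem176b (0.870), C1qc (0.844), Cbx6 (0.821), Nap1l1 (0.813) and C1qa (0.807). C1qa and C1qc encode chains of complement C1q and are on the macrophage list. Among the nearest to Cd79a were Fcmr (0.951), H2-DMb2 (0.933), H2-Ob (0.871) and Pou2f2 (0.857), of which Fcmr, a receptor for IgM, and H2-Ob are on the B cell list. Nearest to Pigr were Ociad2 (0.773), Aplp2 (0.762), AA467197 (0.753), Abcc3 (0.738) and Skap2 (0.738), none of them on the lists of immune cells.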

How the data were processed

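Each library is 1 mouse, and groups were taken from the labels. STAR, HTSeq and the build GRCm39 are named per the submitters' processing notes. What is not given in the sources used here is their versions, the annotation, the strand setting and the treatment of multiply matching reads. Raw counts per gene were deposited by the authors. The 5 rows that name no gene held 13.5% of reads and were left out. Symbols were found for 94.0% of 55416 rows. Totals in genes ran from 15382583 to 17174721. All 121 pairs within a diet differed beyond sampling noise (chi-square per degree of freedom from 12.9).

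The counts were tested with edgeR 4.0.16 in R 4.3.3 (filterByExpr, TMM, quasi-likelihood F test, diet as the only term, 13405 genes, Benjamini-Hochberg adjustment, threshold 0.05). Log2 CPM used a prior count of 2, and ratios added 0.5 to each count. Ratios, shares and correlations were tested by two-sided permutation with 100000 resamples (SciPy 1.17.1). Alternatives were DESeq2 1.42.0, limma 3.58.1 (voom, with and without quality weights), other scalings and filters, and leaving out each library. The tests were checked on simulated counts.

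The members and lists were chosen with earlier results of these data known, and the 33 list correlations were added after the members' values had been seen. Named from each list are the 3 genes averaging at least 1 CPM whose unadjusted p was smallest, and some others chosen after their values were seen. Some genes taken by these rules are not reported here. Lengths and exon overlaps come from GENCODE M21, which is of another build, so no gene coordinates are given. The labels do not say which mice shared a cage or litter.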

Additional observations from a re-analysis of the deposited data

How the results depend on the processing

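No paired analysis was possible because replicate numbers only follow accession order. The number of genes called across the genome was 0 with edgeR, 132 with DESeq2, 167 with limma-voom and quality weights, and 0 to 219 when each library was left out (219 without GAL42 replicate 7); no member that had an adjusted p was called under these, but DESeq2 gave none to Cd79a and Cd79b, and Mzb1, Tnfrsf17 and Ms4a1 were not run with DESeq2, limma-voom, the robust fit or another scaling. For Ighm, Cd79a and Cd79b the difference stayed positive under every alternative run, between 0.51 and 1.03, 0.80 and 1.51, and 0.62 and 1.09. For Ms4a1, run with other filters and with each library left out, it lay between 1.16 and 2.22. Igha (-0.043 to 0.23), Jchain (-0.13 to 0.12), Tnfrsf17 (-0.29 to 0.14) and Pigr (-0.019 to 0.083) changed sign when a library was left out, and Jchain was -0.020 with limma-voom; the cause was not tested. Without GAL42 replicate 5 Igha was -0.043, Jchain -0.13 and Pigr -0.019. With group medians the difference was 0.12 for log2 Igha to Cd79a, -0.035 for Igha to Pigr, 1.92 percentage points for the top variable segment and -2.21 for the effective number of variable segments. Leaving out each library gave -0.044 to 0.16 for Igha to Pigr, -0.14 to 0.046 for Jchain to Pigr, -0.73 to 0.45 points for the kappa share, -1.78 to 1.13 points for the top segment and -0.64 to 1.78 for the effective number. Within GLU42 alone r was -0.081 for Igha and Cd79a, -0.055 for Igha and Ms4a1, -0.031 for Ighm and Jchain, -0.24 for Jchain and Cd79a and -0.28 for Jchain and Ms4a1. Without the 2 farthest mice r was -0.089 for Igha and Pigr and -0.36 for Jchain and Pigr. Mzb1 and Tnfrsf17 had at most 5 and 16 counts per library, which limits the precision of their values.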
